A study of Homo sapiens with 12 samples.

Results

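DHRS2 and 9 other genes of the DHRS branch of the short-chain dehydrogenases (DHRS1, DHRS3, DHRS4, DHRS7, DHRS7B, DHRS9, DHRS11, DHRS12 and DHRS13) were followed across the 4 groups of the series. They were chosen by gene symbol, 10 of the 58735 genes in the deposited table, and all 10 passed the filter on low counts. The choice was made with measured values known, and which values led to DHRS2 is not recorded. All differences of DHRS2 are therefore given as a description, with standard errors and without a test. Poly(A) RNA came from A549, an established human line of non-small cell lung cancer. The cells stably carried a control hairpin (shControl) or a hairpin against the ubiquitin ligase gene TRIM22 (shTRIM22). Each population was sham-irradiated or harvested 3 days after ionizing radiation, with 3 libraries in each of the 4 groups. Only 1 stable population per hairpin is named in the labels, so "knockdown" below means shTRIM22 against shControl cells and includes any other difference between those populations. Neither the radiation dose nor the time at which sham cells were taken is stated in them.

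Short-chain dehydrogenases are oxidoreductases that bind NAD(H) or NADP(H) and pass hydride to or from alcohols, aldehydes and ketones. Their substrates include retinoids, steroids, lipids and foreign carbonyl compounds. In epithelial cells some of them set how much retinal is available for oxidation to retinoic acid, the ligand of the RAR nuclear receptors. DHRS2, also known as Hep27, is a carbonyl reductase described in mitochondria and the nucleus, where it can bind MDM2, the ubiquitin ligase that restrains p53.

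Total counts ran from 14468386 to 17872154 per library. TRIM22 followed the labels, at 2.28 ± 0.538 CPM in shControl sham, 17.6 ± 0.969 in shControl irradiated, 0.308 ± 0.0169 in shTRIM22 sham and 2.00 ± 0.579 in shTRIM22 irradiated libraries (mean ± SD, n = 3). Here and below, CPM is a count scaled to its library's total with TMM factors. The summed level of 6 epithelial markers, all of them tested, was 4181 to 4491 CPM in shControl sham, 5952 to 6380 in shControl irradiated, 6456 to 8343 in shTRIM22 sham and 6888 to 7439 in shTRIM22 irradiated libraries. With knockdown in unirradiated cells 3 of the 6 rose and 2 fell. Those that rose were KRT18 (log2 fold change 0.94, edgeR adjusted p = 4.15e-07), KRT8 (0.68, adjusted p = 2.59e-06) and EPCAM (0.78, adjusted p = 0.00308). CDH1, the gene of E-cadherin, fell from 215 ± 13.2 to 44.4 ± 3.97 CPM (log2 fold change -2.28, edgeR adjusted p = 1.17e-12). The other that fell was CDH2 (-0.71, adjusted p = 0.00143), the gene of N-cadherin, which more often marks mesenchymal cells. Of 5 fibroblast markers 2 were tested, and the summed level ran from 5.53 to 8.53 CPM in shControl and from 7.45 to 16.7 CPM in shTRIM22 libraries. The collagen gene COL3A1 was at 0.228 ± 0.162 CPM in shControl sham and rose to 4.23 ± 2.54 CPM in shTRIM22 sham libraries (adjusted p = 1.68e-05). The other tested fibroblast marker, COL1A1, was at 6.29 ± 1.37 and 6.01 ± 2.84 CPM there (log2 fold change -0.07, adjusted p = 0.843). Of 4 endothelial markers 2 were tested, with a summed level of 3.84 to 4.86 CPM in all groups but shTRIM22 irradiated, where it was 8.49 to 12.0 CPM. CDH5, the gene of VE-cadherin, was at 0.1 ± 0.0333 CPM in shControl sham and rose to 1.58 ± 0.12 CPM in shTRIM22 sham libraries (adjusted p = 0.000302). The other tested endothelial marker, PECAM1, did not rise, at 3.76 ± 0.156 and 2.94 ± 0.0943 CPM (log2 fold change -0.35, adjusted p = 0.148). Library 3 of shTRIM22 sham stood apart: the 13 mitochondrially encoded protein genes took 1.46% of its counts, against 6.70% to 11.8% in the other libraries. Calls of members that change without it are marked below. For other single genes, results without it were not examined. Whether these shifts contribute to the differences in the members was not tested.

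DHRS2 (ENSG00000100867, plus strand of chromosome 14, bases 23630115 to 23645639 in GRCh38) overlaps no other annotated gene. Its upstream sequence and that of DHRS9 are shown because these members had the widest range of levels over the groups and were the only members whose upstream windows held a TATA box. DHRS13 is shown beside them as a member that fell after irradiation in both populations. The sequences are RefSeq's (GRCh38.p14), read 5′ to 3′ toward the gene, and capitals mark TATAAA. The DHRS2 window is chr14:23629865-23630114, the 250 bases before the annotated start. The DHRS9 stretch is the 30 bases at chr2:169067032-169067061, from 1 of 4 annotated starts. The DHRS13 window is chr17:28903080-28903329 on the minus strand.
DHRS2: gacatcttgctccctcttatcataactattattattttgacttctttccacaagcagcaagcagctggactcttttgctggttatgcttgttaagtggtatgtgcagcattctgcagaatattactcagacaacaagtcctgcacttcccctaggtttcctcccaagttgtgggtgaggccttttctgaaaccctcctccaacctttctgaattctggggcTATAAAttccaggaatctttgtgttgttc
DHRS9: aggaggaagaaaaTATAAAgtacactttta
DHRS13: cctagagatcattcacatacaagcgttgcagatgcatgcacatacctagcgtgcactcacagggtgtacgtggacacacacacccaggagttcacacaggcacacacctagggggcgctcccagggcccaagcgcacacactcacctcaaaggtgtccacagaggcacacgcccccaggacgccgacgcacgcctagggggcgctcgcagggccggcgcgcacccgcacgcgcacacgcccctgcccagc

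The TATAAA of DHRS2 began 29 bases before the start, and that of the DHRS9 stretch 32 bases before its start. The same DHRS9 window held another, 114 bases before the start. At the other DHRS9 starts it lay 149 bases before on the opposite strand, lay 137 bases before, or was absent. Windows of 250 bases were available for 9 of the 10 members, some with several starts, and DHRS7 had none. Besides TATAAA, both strands were searched for the CCAAT box, the E-box with the letters CACGTG, the GC box with the letters GGGCGG, the CHR element of cell cycle promoters with the letters TTTGAA, and the p53 half-site consensus. Over 35116 windows of the same length in the whole table, 10.7% held TATAAA, 32% CCAAT, 6.34% CACGTG, 42.6% GGGCGG, 13.3% TTTGAA and 5.57% a p53 half-site. The DHRS2 window held none of the other motifs and the DHRS13 window held none at all. GGGCGG was found in windows of DHRS1, DHRS3, DHRS4, DHRS7B, DHRS11 and DHRS12, and the p53 half-site only in that of DHRS4. CCAAT was found in windows of DHRS7B and DHRS9, TTTGAA only in windows of DHRS9, and CACGTG in no member's window. G and C made up 43.2% of the DHRS2 window and 29.6% to 39.2% of the DHRS9 windows, against 48.8% to 75.6% for all other members. A match of letters does not show that a factor binds there.

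The levels of DHRS2 were separate in all 4 groups. Its level was 9.94, 11.2 and 8.27 CPM in the shControl sham libraries and 1.70, 2.41 and 1.12 CPM in the shControl irradiated ones. In shTRIM22 sham libraries it was 33.4, 30.5 and 34.6 CPM, and in shTRIM22 irradiated ones 2.47, 3.01 and 4.25 CPM. Thus shTRIM22 sham libraries were highest, shControl sham came next, and both irradiated groups lay below every sham library. No pair of groups overlapped, although the highest shControl irradiated and the lowest shTRIM22 irradiated library were only 2.41 and 2.47 CPM. Here and below, the share of all genes tested whose groups separate in the same way was not counted. In bulk RNA, fewer cells that express the gene and less RNA per cell cannot be told apart.

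**Figure D1:**
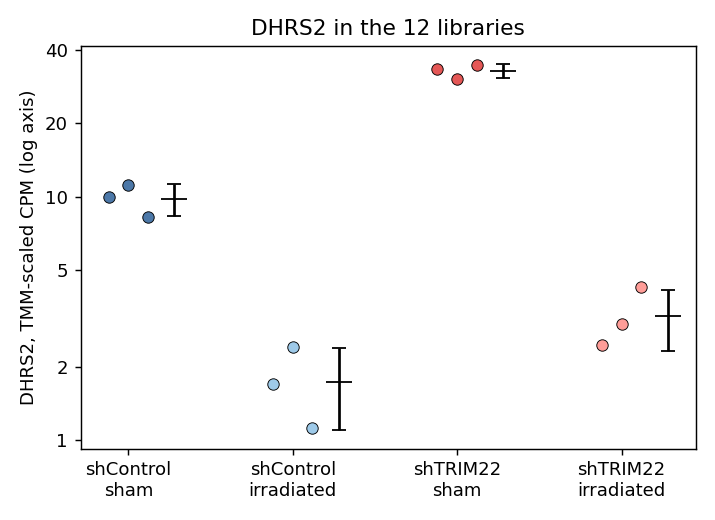
DHRS2 level in TMM-scaled CPM (log axis) by group; points are libraries and the black mark beside them is the mean ± SD of 3. The shTRIM22 sham libraries sit between 30.5 and 34.6 CPM, and the irradiated libraries of both populations between 1.12 and 4.25 CPM.

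After irradiation DHRS2 was lower in both populations. In shTRIM22 cells its difference was -3.34 ± 0.19 (log2 ± SE, 10.1-fold lower), and its mean after irradiation was 9.88% of the sham mean. In shControl cells it was -2.49 ± 0.23, which left 17.8% of the sham mean.

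The higher level in unirradiated shTRIM22 cells, 32.8 ± 2.14 against 9.79 ± 1.45 CPM (mean ± SD, n = 3), corresponds to 1.75 ± 0.17 on the log2 scale. After irradiation shTRIM22 cells held 3.24 ± 0.911 and shControl cells 1.74 ± 0.644 CPM, a log2 difference of 0.90 ± 0.26. The comparisons share libraries with those for irradiation. In the interaction, the log2 effect of irradiation was 0.84 ± 0.32 lower in shTRIM22 than in shControl cells. Leaving out library 2 of shControl irradiated moved the difference after irradiation to 1.22 and the interaction to -0.53, and leaving out library 3 of that group moved them to 0.65 and -1.10. Irradiated shTRIM22 cells carried 33.1% of the DHRS2 level of untreated shControl cells.

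Scaled to gene length, DHRS2 took a changing share of the members' RNA. It made up 1.46% ± 0.237 of their summed CPM per kb in shControl sham, 0.257% ± 0.0971 in shControl irradiated, 6.14% ± 0.469 in shTRIM22 sham and 0.603% ± 0.176 in shTRIM22 irradiated libraries (mean ± SD, n = 3). In the order of the members by mean CPM per kb within a group, it was the fourth in shTRIM22 sham, the ninth in shControl sham and the last in both irradiated groups. Its highest group mean was 18.8 times the lowest. For the other members that ratio ran from 1.15 in DHRS11 to 2.85 in DHRS9.

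The retinoid enzymes of the family did not share a pattern. DHRS3, which reduces all-trans-retinal back to retinol, had the highest length-scaled level, 48.8 ± 0.657 CPM per kb in shControl sham libraries. Without irradiation DHRS3 was at 150, 146 and 148 CPM in shControl and at 85.8, 82.5 and 89.1 CPM in shTRIM22 libraries. It was at 134, 136 and 150 CPM in shControl irradiated and 91.9, 101 and 89.1 CPM in shTRIM22 irradiated libraries. Every shTRIM22 library was thus below every shControl library. Knockdown lowered DHRS3 by -0.79 ± 0.07 without irradiation (log2 ± SE, adjusted p = 5.67e-08) and by -0.58 ± 0.07 after it (adjusted p = 3.52e-06). Irradiation gave -0.08 ± 0.06 in shControl (adjusted p = 0.433) and 0.13 ± 0.07 in shTRIM22 cells (adjusted p = 0.151), the latter 0.16 with an adjusted p of 0.0401 without library 3 of shTRIM22 sham.

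DHRS9, which oxidizes retinol and 3-alpha-hydroxysteroids, had the lowest mean length-scaled level over the 12 libraries, 0.682 CPM per kb. It was counted 20, 16 and 34 times in the shControl sham libraries and 55, 42 and 44 times in the shControl irradiated ones. In shTRIM22 cells it was counted 28, 28 and 37 times without and 56, 69 and 64 times after irradiation. Irradiated libraries were above sham libraries in both populations, with no overlap. DHRS9 rose from 1.39 ± 0.470 to 3.08 ± 0.710 CPM in shControl cells (log2 fold change 1.12 ± 0.27 SE, adjusted p = 0.00689). It rose from 1.80 ± 0.333 to 3.97 ± 0.288 CPM in shTRIM22 cells (1.14 ± 0.25, adjusted p = 0.00286). Knockdown gave 0.35 ± 0.28 without and 0.38 ± 0.24 after irradiation (adjusted p = 0.314 and 0.239).

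DHRS4, a peroxisomal reductase of retinal and other carbonyls, passed no test with all libraries in the main setting. Its level was 11.9, 15.3 and 15.1 CPM in unirradiated shControl and 10.98, 10.2 and 19.2 CPM in unirradiated shTRIM22 libraries, where library 3 stood far above the other two. Without that library, knockdown gave -0.41 (adjusted p = 0.013) in place of -0.07. Irradiation in shTRIM22 cells gave -0.43 ± 0.21 (adjusted p = 0.146), -0.59 (adjusted p = 0.0351) without library 2 of shTRIM22 sham and -0.09 (adjusted p = 0.703) without library 3 of that group. It passed without the filter on low counts (adjusted p = 0.0181), and knockdown after irradiation, -0.30 ± 0.21 (adjusted p = 0.296), passed when only the compared groups were fitted (adjusted p = 0.0479). DHRS4 lies beside a near-identical copy, DHRS4L2: 35.4% of the words of 50 bases in its annotated transcripts occur in those of DHRS4L2, so the split of reads between them is uncertain. It also shares 331 exonic bases with the antisense gene DHRS4-AS1, and strandedness is not given in the sources used here.

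Among the other genes with a DHRS name, DHRS4L2 and DHRS4-AS1 passed tests. DHRS4L2 had 11.9 ± 0.956 CPM in shControl sham, 7.68 ± 1.09 in shControl irradiated and 7.61 ± 1.90 in shTRIM22 sham libraries. It fell with irradiation in shControl cells (-0.64 ± 0.17, adjusted p = 0.0157) and with knockdown in unirradiated cells (-0.65 ± 0.17, adjusted p = 0.00499). DHRS4-AS1 fell with knockdown in unirradiated cells, from 21.2 ± 2.31 to 12.4 ± 3.44 CPM (-0.78 ± 0.17, adjusted p = 0.00131). DHRSX, at 37.1 to 44.4 CPM in the group means, passed no test, and DHRS4L1 and DHRS7C were too low to be tested, with at most 4 counts in a library.

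The carbonyl and steroid reductases were DHRS1, DHRS7 and DHRS11. DHRS1, an enzyme of the endoplasmic reticulum that reduces steroids and xenobiotic carbonyls in vitro, was at 14.7, 14.98 and 18.2 CPM in shControl sham and 21.7, 21.1 and 25.4 CPM in shControl irradiated libraries. In shTRIM22 cells it was at 12.1, 11.1 and 11.5 CPM without and 16.6, 17.4 and 19.1 CPM after irradiation. Irradiation raised it in both populations and knockdown lowered it in both states, so the order of its group means was the reverse of that of DHRS2. The rise was 0.51 ± 0.11 in shControl (adjusted p = 0.00416) and 0.61 ± 0.12 in shTRIM22 cells (adjusted p = 0.000992). With knockdown it changed by -0.47 ± 0.12 without irradiation (adjusted p = 0.00316) and by -0.37 ± 0.11 after it (adjusted p = 0.0162). The last call was lost without library 3 of shControl irradiated (adjusted p = 0.0978) and without library 1 or 2 of shTRIM22 irradiated (0.0715 and 0.054). Over the 12 libraries the log2 CPM of DHRS1 and DHRS2 had a Pearson correlation of -0.94. That value is a description of libraries that fall into 4 groups. DHRS1 lies 645 kb from DHRS2 on chromosome 14.

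DHRS7, a reductase of the endoplasmic reticulum, was the second in length-scaled level in every group. It was at 64.5, 75.3 and 76.3 CPM in shControl sham and 90.0, 88.8 and 85.3 CPM in shControl irradiated libraries, groups that did not overlap. That difference of 0.29 ± 0.13 did not pass the test (adjusted p = 0.14). Library 3 of shTRIM22 sham held 91.6 CPM, against 69.9 and 56.5 in the others of its group, and 4 results changed their call without it. Without it DHRS7 was 0.31 higher after irradiation in shTRIM22 cells (adjusted p = 0.00118), 0.19 lower with knockdown in unirradiated cells (log2 fold change -0.19, adjusted p = 0.0367, against 0.01 with it) and 0.29 higher after irradiation in shControl cells (adjusted p = 0.000687). Without it, knockdown after irradiation gave -0.16 with an adjusted p of 0.0419, in place of 0.357. The difference in shControl cells also passed without library 2 of shTRIM22 sham (adjusted p = 0.0252), without the filter on low counts (0.0133) and in a fit of the compared groups alone (0.000758). Fitting only those groups also gave a call for knockdown after irradiation (-0.16, adjusted p = 0.00854). DHRS7 shares 894 exonic bases with PCNX4 on the opposite strand.

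DHRS11, a cytosolic reductase of steroids and dicarbonyls, had group means of 8.20 to 9.43 CPM. It passed no test in any comparison, with adjusted p from 0.358 to 0.539, and gave -0.39 with an adjusted p of 0.0442 for knockdown in unirradiated cells without library 3 of shTRIM22 sham. Its group means differed less than those of any other member.

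DHRS7B, known in mouse as PexRAP, reduces acyl- and alkyl-dihydroxyacetone phosphate on the way to ether lipids. Its level was 10.5, 10.3 and 10.02 CPM in unirradiated shControl and 14.2, 15.8 and 15.9 CPM in unirradiated shTRIM22 libraries. After irradiation it was 8.35, 12.2 and 10.3 CPM in shControl and 14.04, 15.1 and 15.7 CPM in shTRIM22 libraries. All shTRIM22 libraries were above all shControl libraries. Knockdown raised DHRS7B by 0.57 ± 0.13 without irradiation (adjusted p = 0.00131) and by 0.54 ± 0.13 after it (adjusted p = 0.0034). For irradiation the difference was 0.00 ± 0.13 in shControl and -0.03 ± 0.12 in shTRIM22 cells (adjusted p = 0.988 and 0.872).

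DHRS13 fell with irradiation in both populations. It was at 5.41, 6.33 and 7.60 CPM in shControl sham and 3.68, 4.17 and 3.84 CPM in shControl irradiated libraries. In shTRIM22 cells it was at 6.80, 5.90 and 8.55 CPM without and 2.80, 3.92 and 3.93 CPM after irradiation. Irradiated and sham libraries did not overlap in either population, while shControl and shTRIM22 libraries of the same treatment did. It changed by -0.73 ± 0.19 in shControl (adjusted p = 0.0135) and by -0.995 ± 0.191 in shTRIM22 cells (adjusted p = 0.00115). The call in shControl cells was lost without library 3 of shControl sham (-0.59, adjusted p = 0.0772), or without library 1 or 3 of shControl irradiated (adjusted p = 0.0549 and 0.0502). Knockdown gave 0.13 ± 0.18 without and -0.13 ± 0.20 after irradiation (adjusted p = 0.568 and 0.652). An antisense gene covers 1221 of its exonic bases on the other strand but received only 3 counts over all 12 libraries.

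DHRS12 was low, with 49 to 88 counts per library. Its level was 4.84, 3.95 and 4.95 CPM in unirradiated shControl and 3.32, 3.47 and 3.11 CPM in unirradiated shTRIM22 libraries. After irradiation it was 3.54, 3.19 and 3.73 CPM in shControl and 4.94, 4.04 and 3.41 CPM in shTRIM22 libraries. It fell with knockdown in unirradiated cells (-0.48 ± 0.18, adjusted p = 0.0397), but this call was lost in 8 of 18 alternatives, among them DESeq2 (adjusted p = 0.0552). The libraries whose removal ended it were 1 and 3 of shControl sham (adjusted p = 0.106 and 0.121) and 1, 2 and 3 of shTRIM22 sham (0.0799, 0.0575 and 0.0928). Irradiation gave -0.39 ± 0.18 in shControl (adjusted p = 0.155) and 0.32 ± 0.18 in shTRIM22 cells (adjusted p = 0.207). DHRS12 shares 650 exonic bases with the protein-coding gene AL162377.3 on the same strand, which received 0 counts over all libraries.

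**Figure D2:**
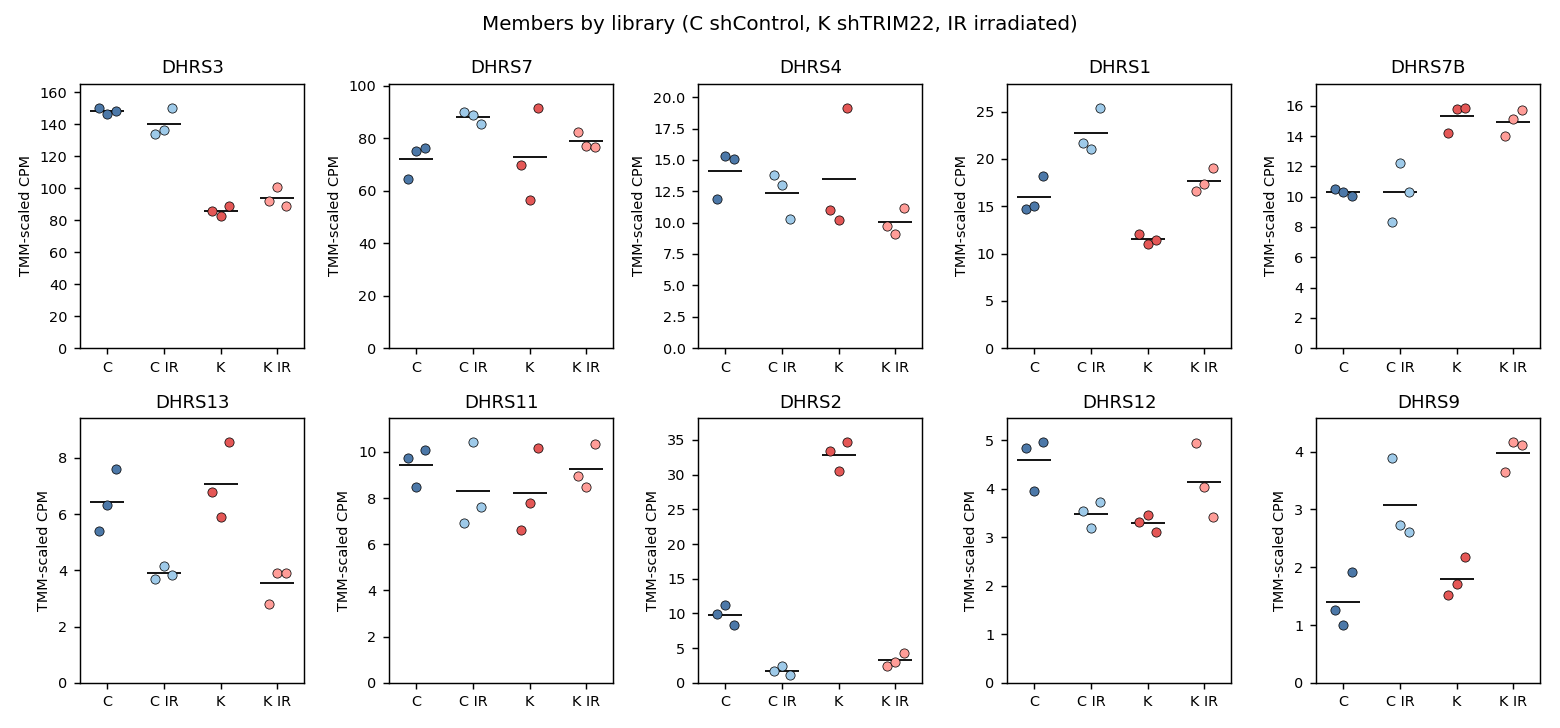
TMM-scaled CPM of each member in the 12 libraries, ordered by mean length-scaled level; points are libraries, black lines group means, and each vertical axis starts at 0. Over all libraries DHRS3 and DHRS7B separate by hairpin, and DHRS9 and DHRS13 by irradiation. DHRS1 and DHRS2 separate by irradiation within each population and by hairpin within each treatment. The share of all genes tested that separate in these ways was not counted. Of all genes tested, 18.2% and 27.5% were called for irradiation in shControl and shTRIM22 cells. For knockdown without and after irradiation, 47.5% and 35.6% were called.

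Counted together, the members moved in both directions. Of the 9 members other than DHRS2, 2 rose and 1 fell with irradiation in shControl cells, where 18.2% of all genes tested passed in either direction. The same numbers rose and fell in shTRIM22 cells (27.5% of all genes). With knockdown, 1 rose and 3 fell in unirradiated cells (47.5% of all genes), and 1 rose and 2 fell after irradiation (35.6%). These shares are near the background for so few genes. The interaction called 0 of the 9 by edgeR and 0 by DESeq2, with DHRS3 and DHRS12 at an unadjusted p below 0.05 in edgeR, where 1.61% of all genes were called (0.521% higher and 1.09% lower). DHRS12 had the largest interaction of these 9, 0.72 ± 0.26 (adjusted p = 0.171). Median log2 fold changes of the 9 were -0.08, 0.13, -0.07 and -0.13 for irradiation in shControl, irradiation in shTRIM22, knockdown without and knockdown after irradiation. Over all genes the same medians were 0.00813, 0.000721, 0.0191 and -0.00137.

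**Figure D3:**
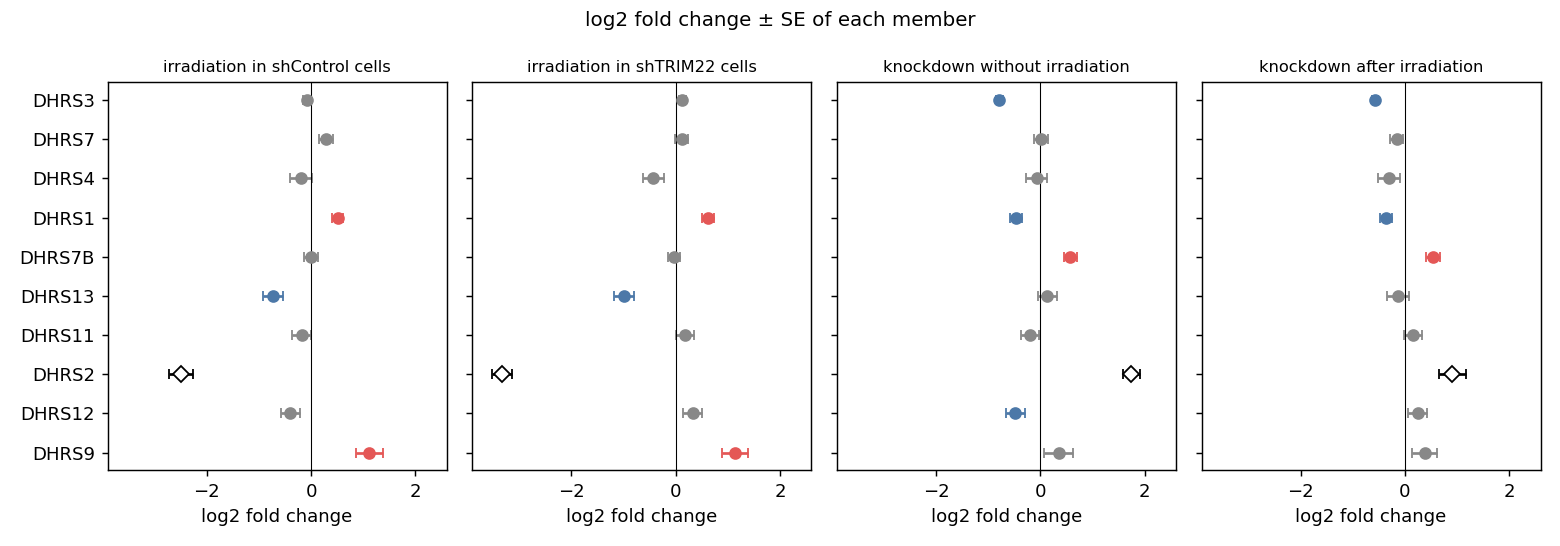
log2 fold change ± SE of each member in 4 comparisons; red marks a called rise, blue a called fall and grey no call at an adjusted p below 0.05, and open diamonds are DHRS2 values given without a test. DHRS1, DHRS9 and DHRS13 have a called change of the same direction in both irradiation panels, and DHRS1, DHRS3 and DHRS7B in both knockdown panels.

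**Figure D4:**
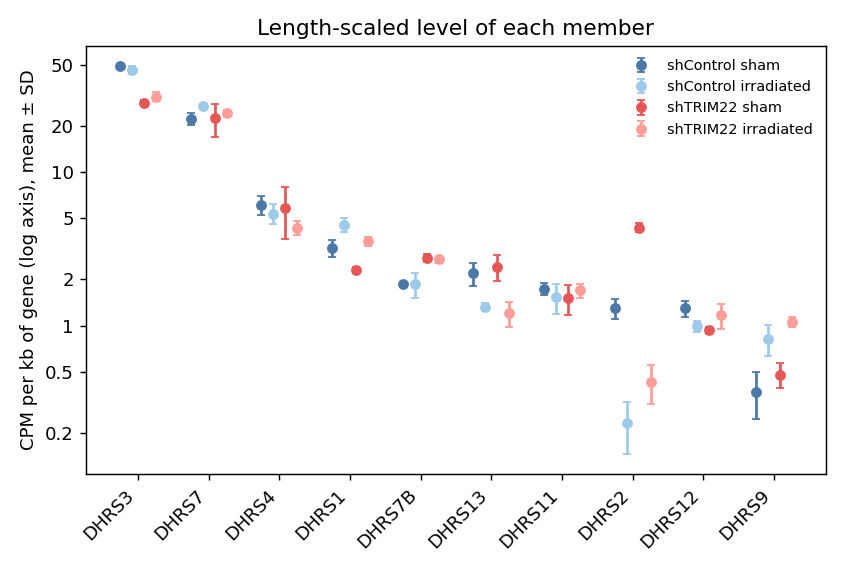
Level per kb of gene (TMM-scaled CPM per kb, log axis) of the members, as mean ± SD of 3 libraries in each group. DHRS3 and DHRS7 are the highest in every group, and DHRS2 runs from 0.231 to 4.34 CPM per kb.

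Of 25 genes of retinoid uptake, storage and signaling outside the family, 24 were tested. Irradiation raised 6 and lowered 1 in shControl cells, and raised 7 and lowered 2 in shTRIM22 cells (10.6% higher and 7.53% lower, then 13.5% higher and 14% lower, of all genes). RETSAT, which saturates retinol, rose from 76.2 ± 2.19 to 153 ± 2.36 CPM in shControl and from 75.0 ± 6.92 to 122 ± 4.10 CPM in shTRIM22 cells (log2 fold change 1.01, adjusted p = 3.88e-08, and 0.71, adjusted p = 2.64e-06). RBP4, the plasma retinol carrier, rose by 1.38 and 1.12 (adjusted p = 7.59e-07 and 1.45e-05). STRA6, the receptor that takes up retinol from RBP4, rose by 0.36 and 0.51 (adjusted p = 0.000196 and 7.2e-06). RDH11, a retinal reductase, rose by 0.26 in shControl and 0.23 in shTRIM22 cells (adjusted p = 0.00926 and 0.012). RARB, a retinoic acid receptor gene, rose by 0.62 (adjusted p = 0.00431) in shTRIM22 cells and gave 0.41 without a call in shControl cells (adjusted p = 0.0525).

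With knockdown, 4 of these 24 genes rose and 9 fell in unirradiated cells, and 2 rose and 9 fell after irradiation (25.4% higher and 22.1% lower, then 17.6% higher and 18% lower, of all genes). SDR16C5, a retinol dehydrogenase, rose from 1.68 ± 0.126 to 6.87 ± 0.776 CPM without irradiation (2.03 ± 0.20, adjusted p = 5.19e-07) and by 2.68 after it (adjusted p = 1.55e-07). ALDH1A3, which oxidizes retinal to retinoic acid, rose by 0.81 and 0.97 (adjusted p = 3.92e-05 and 1.13e-05). STRA6 fell by -0.59 and -0.44 (adjusted p = 2.1e-07 and 8.37e-06), and RXRA, the partner receptor of RARs, by -0.57 and -0.75 (adjusted p = 2.78e-06 and 2.29e-07). RBP4 fell by -0.71 without and -0.97 after irradiation (adjusted p = 0.000335 and 7.28e-06).

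Of 34 short-chain dehydrogenases outside the DHRS branch, 30 were tested. Irradiation raised 7 and lowered 1 in shControl cells, and raised 8 and lowered 5 in shTRIM22 cells (of all genes, 10.6% higher and 7.53% lower, then 13.5% higher and 14% lower). Knockdown raised 6 and lowered 9 in unirradiated cells, and raised 2 and lowered 10 after irradiation (of all genes, 25.4% higher and 22.1% lower, then 17.6% higher and 18% lower). With irradiation HSD17B12, a reductase of fatty acid elongation, rose by 0.46 in shControl and 0.25 in shTRIM22 cells (adjusted p = 0.000448 and 0.02). NSDHL, a sterol synthesis enzyme, rose by 0.32 and 0.51 (adjusted p = 0.0351 and 0.00106). HPGD, which inactivates prostaglandins, fell with knockdown from 84.6 ± 1.94 to 44.2 ± 3.77 CPM in unirradiated cells (-0.94 ± 0.07, adjusted p = 2e-08). After irradiation the fall was -0.49 (adjusted p = 4.03e-05). HPGD was the 1 gene of this list called in the interaction (0.44 ± 0.10, adjusted p = 0.0354). UXS1, which makes UDP-xylose, rose with irradiation by 0.43 in shControl and 0.31 in shTRIM22 cells (adjusted p = 0.00133 and 0.0105). With knockdown UXS1 fell by -0.53 without and -0.65 after irradiation (adjusted p = 5.69e-05 and 1.04e-05).

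Among 13221 genes with a mean of at least 2 CPM, those whose log2 CPM was most like that of DHRS2 over the 12 libraries were ZNF146 (Pearson r = 0.987), MYBL2 (0.984), SLC1A5 (0.983), AVL9 (0.982) and CENPM (0.981). MYBL2, a transcription factor of cell cycle genes, was at 30.1 CPM in shControl sham, 12.3 in shControl irradiated, 59.0 in shTRIM22 sham and 17.8 in shTRIM22 irradiated libraries on average. CENPM, a kinetochore protein gene, was at 5.57, 2.59, 10.3 and 3.90 CPM, and SLC1A5, a glutamine transporter gene, at 419, 260, 620 and 335 CPM in the same order. ZNF146 was at 193, 144, 235 and 156 CPM and AVL9 at 141, 107, 178 and 123 CPM. Like DHRS2, these genes were highest in shTRIM22 sham and lowest in shControl irradiated libraries. The ratio of their highest to lowest group mean was smaller than in DHRS2, which a correlation does not take into account. The 12 libraries fall into 4 groups that also differ in many other genes, so such correlations describe a shared order of groups. Within the family the member most like DHRS2 was DHRS13 (r = 0.841). For DHRS3 the closest genes were PHB2 (0.989) and FAM107B (0.988), and for DHRS9 LGALS9B and TMEM263 (0.954 for each).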

How the data were processed

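The authors deposited raw read counts per gene for 12 libraries, without normalization. Per the submitters' processing notes the build was hg38 and DESeq2 1.20.0 was used in an unstated role. The aligner and counter are not given in the sources used. Every one of the 58735 gene IDs matched GENCODE 29, coordinates included. Per the file headers the authors also give a gene length in bases (other), used for CPM per kb.

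Tests of the counts used edgeR 4.0.16 under R 4.3.3 (filterByExpr with a minimum count of 10, 17094 genes, TMM, 1 mean per group over all 12 libraries, robust quasi-likelihood F-tests, Benjamini-Hochberg adjustment over all genes). A call is an adjusted p below 0.05. SE is the size of the fold change divided by the root of F. The steps were tested on simulated data. The table holds 0 further per-sample columns.

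Members and lists were chosen with earlier results of these data known. A test planned for DHRS2 on irradiation in shTRIM22 cells is not printed, since the values behind its choice are not recorded. Named genes are all members, TRIM22, other DHRS-named genes, up to 4 called genes per list and comparison with the smallest p, and the 5 genes most correlated with a member. Counts limit precision: DHRS9 rests on under 70 counts in every library, and DHRS12 in most. DHRS2 and DHRS13 rest on under 70 counts in every irradiated library. Libraries of 1 group are named biological replicates in the series text, which does not mention separate cultures; p-values therefore cover only library-to-library spread, which may be technical. Alternatives were DESeq2 1.42.0, median-of-ratios factors, no filter, only the compared groups, a replicate block, leaving out each library and, added after seeing the data, leaving out mitochondrially encoded genes.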

Additional observations from a re-analysis of the deposited data

How the results depend on the processing

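Over 890 values of single members under the alternatives, 862 were unchanged, 14 lost a call and 13 gained one. A call in the opposite direction was gained by 1: DHRS7 for knockdown without irradiation, at -0.19 without shTRIM22 sham library 3 (range over libraries left out -0.19 to 0.16). Unchanged meant on the same side of the threshold. For DHRS2, except for irradiation in shTRIM22 cells, no threshold was used. There it meant a log2 difference that moved by less than the SD within the compared groups. Of the 862, 30 changed sign with no call in either setting. DHRS2 kept its direction in every alternative run: leaving out single libraries gave -2.81 to -2.24 for irradiation in shControl cells, -3.56 to -3.18 in shTRIM22 cells, 1.64 to 1.85 and 0.65 to 1.22 for knockdown without and after irradiation, and -1.10 to -0.53 for the interaction. Counts of calls also ranged over the libraries left out, given here in the same order. Members called, DHRS2 included, ranged from 3 to 5, 4 to 6, 4 to 7, 2 to 5 and 0 to 0. Those member counts rest partly on calls of DHRS2, whose choice was made with measured values known. They are therefore no evidence on the family and do not match the counts in the Results, which leave DHRS2 out. Genes called over the whole table ranged from 2135 to 5260, 3356 to 5389, 7047 to 8692, 5009 to 7943 and 111 to 1185. Fitting only the compared groups called 5224 genes for irradiation in shControl and 2912 in shTRIM22 cells. For the interaction, DESeq2 called 574 and the fit without a filter 754 genes, against 276. The causes were not tested. The interaction was not run on compared groups alone, since it uses all 4.

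Replicate numbers did not pair the libraries: correlations of same-numbered deviations ran from -0.0545 to 0.0942, and every library correlated best with its own number in 2 of 4 comparisons. With the replicate block, DHRS2 was -3.34 for irradiation in shTRIM22 cells, and no other member gained or lost a call.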
